A study of Mus musculus with 4 samples.

Results

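The 10 genes described here shape mitochondria, mark them for removal or act in cell death from within them: Opa1, Mfn1 and Mfn2 (fusion), Dnm1l, Fis1 and Mff (fission), Pink1, Bnip3 and Bnip3l (mitophagy), and Aifm1. They were taken by symbol from a table of read counts that holds 29190 genes. Each symbol matched 1 row, and all 10 passed the filter on low counts. The kidneys came from 8-week-old male C57 mice injected with cisplatin at 30 mg/kg body weight or with physiological saline. RNA of whole kidney was sequenced in 4 libraries, 2 for each treatment, after ribosomal RNA depletion. Per the labels' protocols, 18 mice in 3 groups received saline or cisplatin for 24 h or 48 h, but the sources used here do not say which time the cisplatin libraries represent, nor whether a library holds RNA of 1 animal or of several.

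Mitochondria of tubule cells form a network that fuses and divides. Mitofusins join the outer membranes and OPA1 joins the inner membranes and holds the cristae, the folds that carry the respiratory chain, while the GTPase DRP1, the product of Dnm1l, is drawn to the surface by adaptors and constricts the organelle. Damaged mitochondria are removed by mitophagy, either after PINK1 accumulates on them and ubiquitin on their surface is phosphorylated, or through receptors such as BNIP3 that bind autophagosomes directly. AIFM1 (apoptosis-inducing factor) is anchored in the inner membrane, where it supports assembly of the respiratory chain, and can move to the nucleus during cell death that does not need caspases. The proximal tubule, which takes up cisplatin, is among the segments of the kidney richest in mitochondria.

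Library totals ranged from 20662475 to 27122403 counts, and the biological coefficient of variation was 6.42%. Abundance is given as CPM (counts scaled to library size) after TMM normalization, which sets the libraries to a common level through the bulk of their genes. A gene was called when its Benjamini-Hochberg adjusted p in edgeR's quasi-likelihood test was under 0.05. P-values measure only the spread between these libraries, which may be technical. Markers of other kidney segments and cells moved with the treatment. All 10 proximal tubule markers were lower after cisplatin, with a summed level of 24520 and 25160 CPM in the saline libraries and 4620 and 4504 CPM in the cisplatin libraries. All 7 markers of the thick limb and distal tubule were lower as well (7309 and 7414 CPM against 2372 and 2288 CPM). Leukocyte markers were called higher in 7 of 9 tested cases (summed 76.2 and 81.6 CPM against 183 and 193 CPM), with 1, Csf1r, lower. Much of the summed rise was Cd68, at 1.68 and 1.56 CPM after saline and 63.4 and 76.0 CPM after cisplatin. Ptprc, also called higher, rose 1.2-fold, and Cd3e did not pass. All 4 fibroblast and mural markers were higher (166 and 176 CPM against 699 and 709 CPM). Endothelial markers were higher in 5 of 7 cases and lower in 1, both podocyte markers were higher, and collecting duct markers split, with 2 of 6 higher and 3 lower. Ly6g, a neutrophil marker, was too low to be tested, and the B cell marker Cd79a had 2 and 0 saline counts. In whole kidney, fewer cells of a type and less RNA per cell cannot be told apart, and the part of this shift in the results below was not tested.

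Transcripts of 9 of the 10 genes were lower after cisplatin, and 0 were called higher in edgeR's quasi-likelihood test, in its exact test or in DESeq2; 0 rose with an unadjusted p under 0.05. Aifm1 fell 3.92-fold, Bnip3 3.15-fold, Pink1 2.51-fold and Opa1 2.37-fold, whereas the other genes stood at 60.3% of the saline level or above and Dnm1l, the fission GTPase, at 95.3%. Of all 17419 genes tested, 36.4% were called lower and 37.2% higher, so a call in either direction was common in these libraries. The median log2 fold change was -0.72 over the 10 genes and 0.04 over all tested genes. On the TMM scale the cisplatin libraries lay below both saline libraries in all 10 genes, Dnm1l included, against 41.7% of all tested genes. With library size alone Dnm1l lay above both saline libraries, at 104.3 and 100.1 CPM against 79.97 and 86.39 CPM. Among all tested genes 16.1% were called lower with at least a 2-fold change, and 4 of the 10 were.

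**Figure D1:**
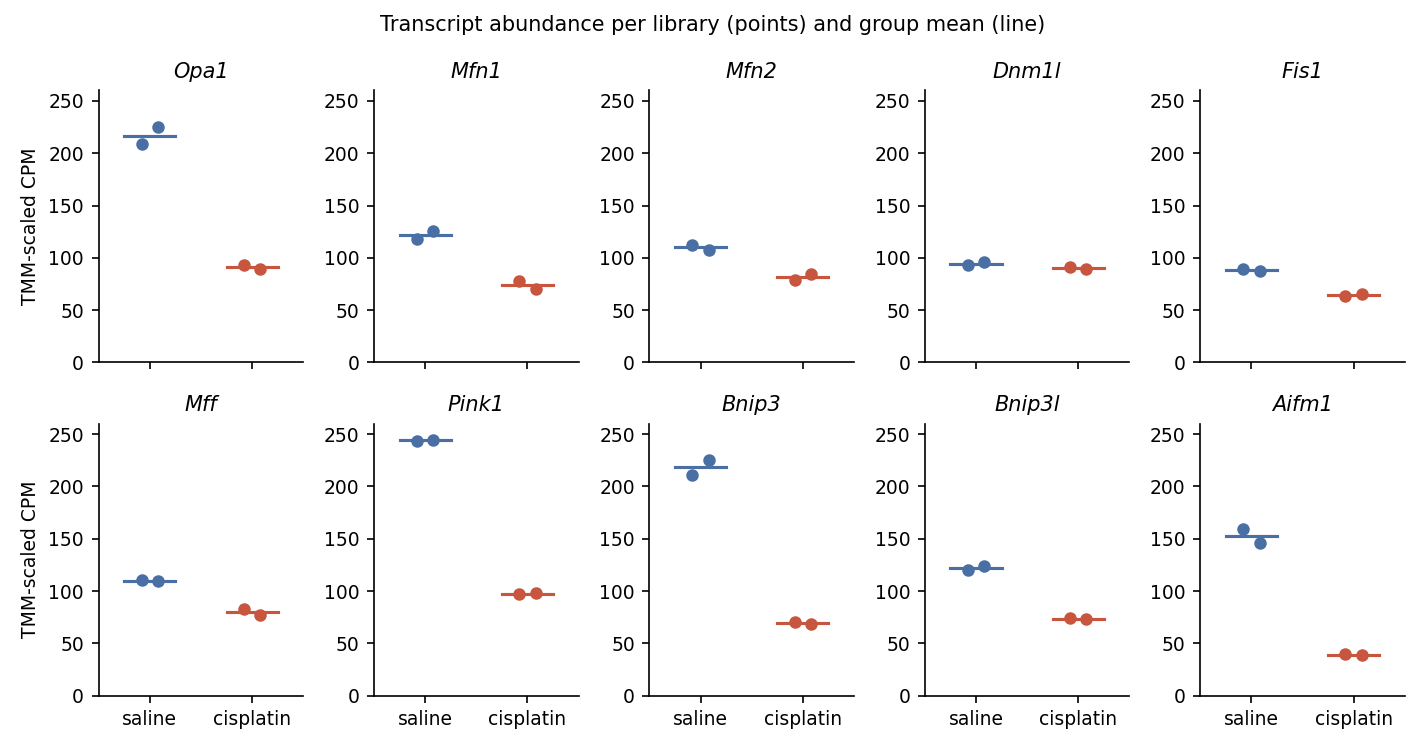
TMM-scaled CPM (vertical axis) of the 10 genes in the saline (blue) and cisplatin (red) libraries; points are libraries and lines are means of 2. The Aifm1 points go from 159.3 and 146.2 CPM to 39.6 and 38.4 CPM, while the Dnm1l points of both groups lie between 89.4 and 96.0 CPM; levels of different genes are not comparable on this scale.

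Of the fusion genes, Opa1 (ENSMUSG00000038084.14, chromosome 16, 29579334 to 29654884, plus strand, GRCm38), which encodes the dynamin-like GTPase of the inner membrane, changed the most. It stood at 208.5 and 225.2 CPM in the saline libraries and at 93.6 and 89.4 CPM in the cisplatin libraries. Both cisplatin values were well below both saline values. On the log2 scale Opa1 changed by -1.25 (standard error, SE, 0.06), with an adjusted p of 4.22e-13 by edgeR's quasi-likelihood test. Mfn1 (chromosome 3, 32529465 to 32579239, plus strand), a mitofusin that tethers outer membranes, stood at 118.1 and 125.6 CPM after saline and at 77.8 and 70.7 CPM after cisplatin. Its groups did not overlap, and the log2 fold change was -0.72 (SE 0.06). Mfn2 (chromosome 4, 147873599 to 147904704, minus strand), the mitofusin that also links mitochondria to the endoplasmic reticulum, stood at 112.3 and 107.8 CPM after saline and at 78.9 and 84.7 CPM after cisplatin. Its log2 fold change, -0.43 (SE 0.06) with an adjusted p of 1.37e-06 by the edgeR test, was the smallest among the 9 genes called. With libraries scaled by their size alone it was -0.06 and did not pass (adjusted p = 0.425).

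Among the fission genes, Fis1 and Mff were called lower and Dnm1l was not. Dnm1l (ENSMUSG00000022789.12, chromosome 16, 16312230 to 16358959, minus strand) stood at 93.0 and 96.0 CPM after saline and at 90.9 and 89.4 CPM after cisplatin. The groups lay close together, with a log2 fold change of -0.07 (SE 0.05) that did not pass (edgeR quasi-likelihood, adjusted p = 0.254). The sign of this value rested on the scaling: it was 0.05 with upper-quartile scaling (adjusted p = 0.439) and 0.30 with library size alone, where Dnm1l was called higher (adjusted p = 0.000264). Fis1 (chromosome 5, 136953275 to 136966234, plus strand), which encodes a small tail-anchored protein of the outer membrane, stood at 89.5 and 87.2 CPM after saline and at 63.8 and 65.8 CPM after cisplatin, a log2 fold change of -0.45 (SE 0.06). Mff (chromosome 1, 82724890 to 82752394, plus strand), an outer-membrane adaptor that recruits DRP1, stood at 110.5 and 109.5 CPM after saline and at 82.5 and 76.7 CPM after cisplatin, a log2 fold change of -0.47 (SE 0.06). Neither gene's groups overlapped. Both calls ended with library size alone, where the values were -0.08 for Fis1 and -0.10 for Mff (adjusted p = 0.29 and 0.198, edgeR quasi-likelihood).

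Among the mitophagy genes, Pink1 and Bnip3 were lower by more than 2-fold. Pink1 (ENSMUSG00000028756.10, chromosome 4, 138313409 to 138326307, minus strand), the kinase that marks depolarised mitochondria with phosphorylated ubiquitin, stood at 243.9 and 244.9 CPM after saline and at 96.9 and 97.8 CPM after cisplatin. Replicates of either group differed by at most 1 CPM, and the transcript changed by -1.33 on the log2 scale (SE 0.06), with an adjusted p of 6.11e-14 by the edgeR test. Bnip3 (ENSMUSG00000078566.6, chromosome 7, 138890836 to 138909519, minus strand), a BH3-only receptor of mitophagy known as a target of hypoxia-inducible factor, stood at 211.1 and 225.2 CPM after saline and at 70.2 and 68.5 CPM after cisplatin. That was a change of -1.65 on the log2 scale (SE 0.06), with an adjusted p of 3.78e-15 by the edgeR test. The related receptor Bnip3l (chromosome 14, 66985239 to 67008877, minus strand), also called NIX and needed to clear mitochondria from maturing red cells, stood at 120.0 and 124.3 CPM after saline and at 74.2 and 73.2 CPM after cisplatin. It was lower in both cisplatin libraries, with a log2 fold change of -0.73 (SE 0.05). In the same libraries all 5 markers of red cells and their precursors were called lower (summed 102 and 110 CPM after saline, 35.3 and 35.4 CPM after cisplatin), and their part in the Bnip3l value was not tested.

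Aifm1 (ENSMUSG00000036932.12, chromosome X, 48474944 to 48513563, minus strand) had the largest fold change of the 10. It stood at 159.3 and 146.2 CPM after saline and at 39.6 and 38.4 CPM after cisplatin. Its cisplatin level was 25.5% of the saline level, or -1.97 on the log2 scale (SE 0.06), with an adjusted p of 2.62e-16 by the edgeR test. Of all tested genes, 5.17% had a log2 fold change this low or lower. Leaving out any single library kept the value between -2.03 and -1.92, and with library size alone it was -1.60. By Euclidean distance between log2 CPM profiles over the 4 libraries, each centred on its mean, the genes nearest to Aifm1 were Usp2 (distance 0.03), Slc22a28 (0.04) and Gjb2 (0.04). Usp2, a deubiquitinase, stood at 97.7 and 87.1 CPM after saline and at 24.0 and 22.9 CPM after cisplatin, and Gjb2, a connexin of gap junctions, at 101.0 and 96.1 CPM and at 25.3 and 24.9 CPM. With 4 libraries in 2 groups, this measure reflects little beyond the size of the fall.

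**Figure D2:**
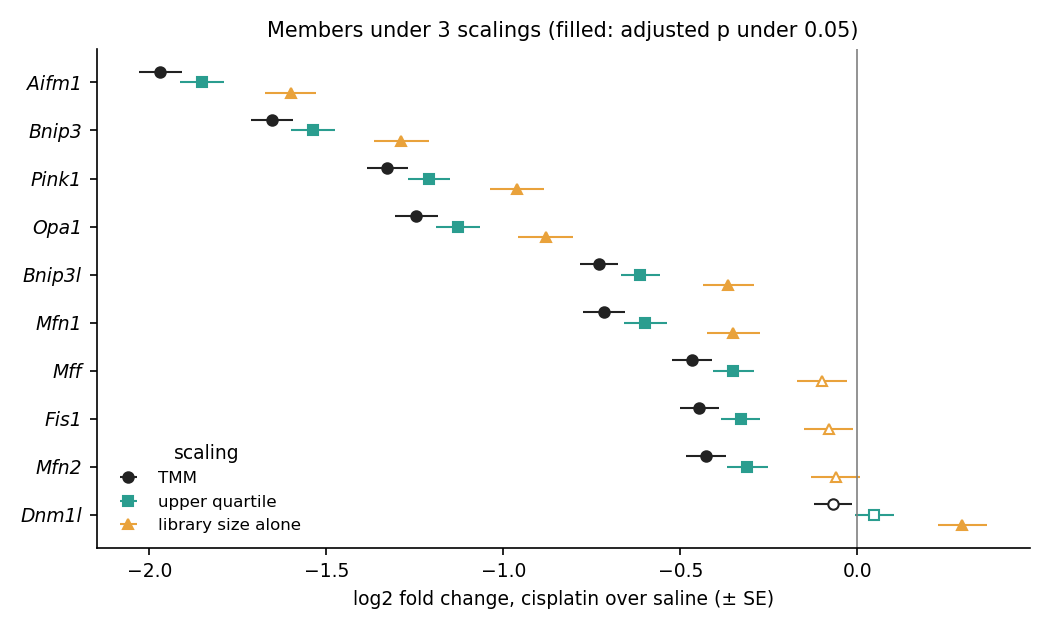
Log2 fold change (horizontal axis, cisplatin over saline, bars are standard errors) of the 10 genes under TMM, upper-quartile and library-size scaling; filled symbols have an adjusted p under 0.05. The order from Aifm1 (-1.97 with TMM) to Dnm1l (-0.07) is the same under each scaling. A change of scaling moves all 10 values by nearly the same amount, so this is not a check of the order. With library size alone Mfn2, Fis1 and Mff are open and Dnm1l lies at 0.30.

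Because the choice of scaling moved these values together, the genes were also compared with each other inside each library, where scaling cancels. A ratio of counts carries the genes' lengths, so only its difference between libraries is read. For each of these ratios 2 libraries against 2 cannot give an exact two-sided permutation p below 0.33, and none is given. The ratio of Dnm1l to Opa1 was 0.446 and 0.426 in the saline libraries and 0.971 and 1.00 in the cisplatin libraries. The groups differed by 1.18 in this log2 ratio, against a pooled SD of 0.04. The ratio of Bnip3l to Bnip3 was 0.569 and 0.552 after saline and 1.06 and 1.07 after cisplatin, a difference of 0.92 on the log2 scale (pooled SD 0.02). The mitofusins parted less. The ratio of Mfn1 to Mfn2 was 1.05 and 1.16 after saline and 0.986 and 0.834 after cisplatin, a difference of -0.29 with a pooled SD of 0.14, and its groups did not overlap.

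Aifm1 was lower relative to each of the other 9 genes, and for none of them did the groups overlap. This direction follows from Aifm1 having the most negative fold change of these genes in the same libraries, and is not a separate test. All 9 ratios share the Aifm1 counts, and the share of all gene pairs that separate in this way was not determined. The log2 ratio of Aifm1 differed the most against Dnm1l, by -1.90 (pooled SD 0.09), and the least against Bnip3, by -0.32 (pooled SD 0.11). Against Opa1 the ratio was 0.764 and 0.649 after saline and 0.423 and 0.43 after cisplatin. Ordered by fold change from the most negative, the neighbours Pink1 and Opa1, Bnip3l and Mfn1, Mff and Fis1, and Fis1 and Mfn2 could not be told apart, because the log2 ratios of the cisplatin and saline libraries overlapped. For the other neighbours in this order the groups did not overlap: Aifm1 and Bnip3, Bnip3 and Pink1, Opa1 and Bnip3l, Mfn1 and Mff, and Mfn2 and Dnm1l. The order was set by these same libraries, so this describes them and does not test the order.

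**Figure D3:**
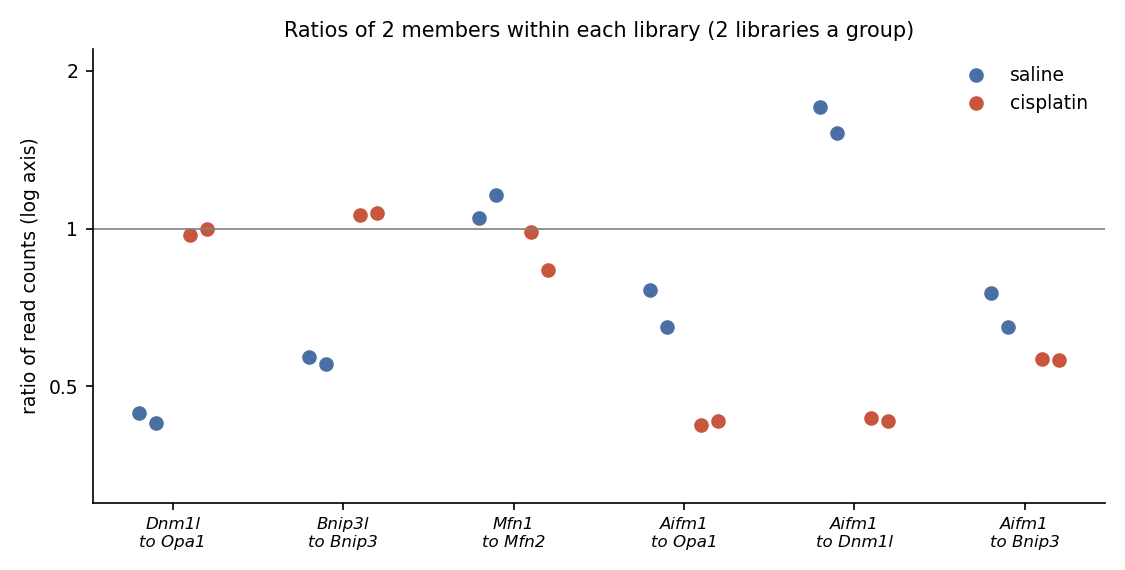
Ratio of read counts of 2 genes within each library (log axis), saline in blue and cisplatin in red, 2 libraries a group. Dnm1l to Opa1 and Bnip3l to Bnip3 lie higher after cisplatin and the ratios of Aifm1 lie lower, with Aifm1 to Dnm1l going from 1.71 and 1.52 to 0.435 and 0.43.

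Levels of different genes can be set side by side only per transcript length, for which the authors' deposited FPKM (fragments scaled to transcript length and library size) were used. After saline, Bnip3 was the most abundant of the 10 at 71.5 ± 8.13 FPKM (SD, n = 2), followed by Pink1 at 52.6 ± 3.73, Fis1 at 46.1 ± 2.30, Aifm1 at 37.0 ± 0.28 and Mff at 29.4 ± 1.82 FPKM. Bnip3l (21.4 ± 1.98 FPKM) and Opa1 (19.9 ± 2.43 FPKM) overlapped in their ranges over the libraries, as did Dnm1l (13.24 ± 1.202 FPKM) with both Mfn1 (14.3 ± 1.60 FPKM) and Mfn2 (12.5 ± 0.49 FPKM). Within each saline library, however, Bnip3l lay above Opa1, Mfn1 above Dnm1l and Dnm1l above Mfn2. After cisplatin, Fis1 led at 40.7 ± 0.39 FPKM, and Bnip3 and Mff, at 27.4 ± 0.83 and 25.7 ± 1.66 FPKM, overlapped with each other. Pink1, at 25.2 ± 0.16 FPKM, lay within the range of Mff. Aifm1, the fourth by level after saline, was the seventh after cisplatin at 11.4 ± 0.38 FPKM and overlapped with Mfn2 at 11.2 ± 0.42 FPKM. Opa1 went from the seventh place to the tenth, at 10.1 ± 0.45 FPKM, overlapping with Mfn1 at 10.5 ± 0.84 FPKM. Within each cisplatin library Bnip3 lay above Mff and Mfn1 above Opa1. Pink1 and Mff changed order between the cisplatin libraries, as did Aifm1 and Mfn2. Summed per length, the fusion transcripts were 0.511 and 0.539 times the fission transcripts in the saline libraries and 0.391 and 0.387 times in the cisplatin libraries. Fis1 was the largest part of the fission sum in each library, and of the fusion transcripts Opa1 fell the most. The sources used here do not give the transcript lengths behind these FPKM.

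**Figure D4:**
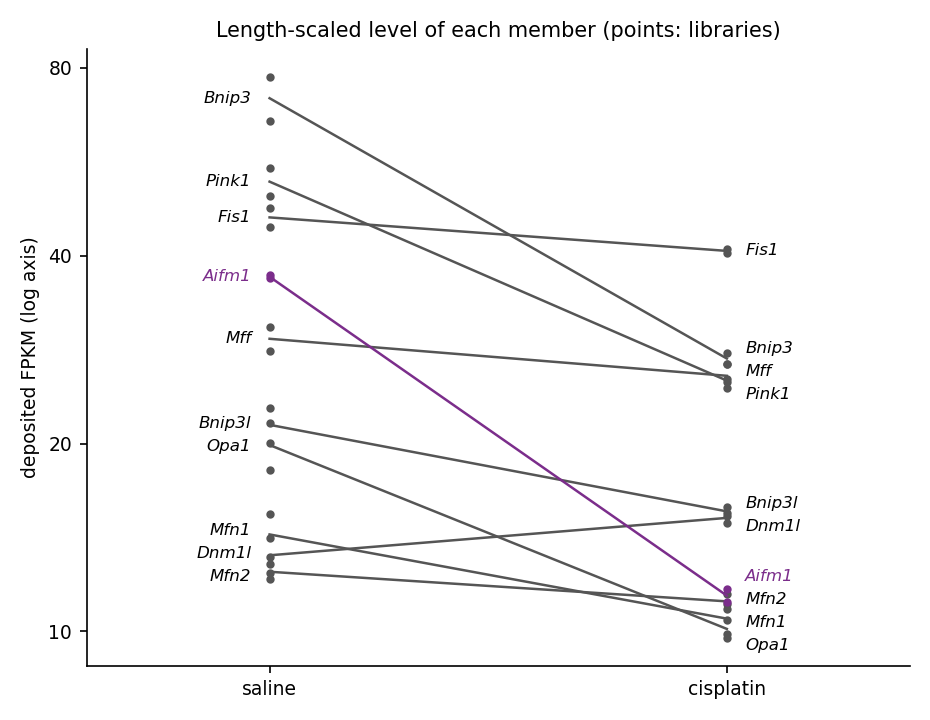
Deposited FPKM (log axis) of each gene after saline and cisplatin; points are libraries and lines join group means. Aifm1 (purple) goes from 37.0 to 11.4 FPKM and crosses Mff, Bnip3l and Dnm1l, Opa1 goes to the lowest place at 10.1, and the lines of Fis1 and Mfn2 are nearly flat.

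Reads of some of these genes could be shared with a neighbour or a copy. Gene models of the opposite strand overlap exons of Dnm1l, Mff and Bnip3, and the sources do not say if counting was stranded. The Mff partner C430014B12Rik had 38 counts over all libraries, and the partners of Dnm1l (Gm49521) and Bnip3 (Gm45507) had 0. On the same strand, Gm28941 lies in an intron of Mff and had 191 counts, and the miRNA genes Gm27646 and Mir7019 lie in exons of Pink1 and had 0. Transcripts aligned over at least 300 bases at 90% identity or more were found for Bnip3 (6 gene models, among them 4 pseudogenes), Bnip3l (Bnip3l-ps) and Dnm1l (Gm13719). Together these had 1 count, for Gm16439. For the partners and copies, 0 also stands for a gene model that has no row in the deposited counts. Absent rows and measured values of 0 were not told apart. How the authors' counting treated reads that fit several places is not given, so these counts do not show how many reads passed between a gene and its copies or partners.

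Promoter windows of RefSeq (GRCm38.p6), from 250 bases before to 50 after an annotated start, were found for 9 of the 10 genes, with 14 windows in all. Bnip3l had no entry. They were searched on both strands for 5 motifs: ACGTG, the core bound by hypoxia-inducible factor; GCGCATGC, the centre of the site of NRF1, a regulator of nuclear genes for mitochondria; AAGGTCA, bound by estrogen-related receptors; GTAAACA, bound by FoxO factors; and TCACGTG, the E-box of lysosomal and autophagy genes, each match of which also counts as ACGTG. The last 3 were in none of the 14 windows, against 4.72%, 3.65% and 3.77% of all 32851 windows. GCGCATGC was found in 2.71% of all windows and in those of Opa1 and Aifm1, and ACGTG in 19.6% of all windows, in the Bnip3 window and in 2 of the 3 Mfn2 windows, which overlap there and share the match. Both of these motifs contain the letters CG. The Opa1, Aifm1 and Bnip3 windows hold CG 18, 21 and 27 times, against a median of 7 over all windows. The shares over all windows are therefore not a background of like composition. A match describes the letters and is not evidence of binding. The windows of the 3 genes that fell by more than 2-fold and held a match are shown 5′ to 3′ along the gene's strand, with the matched letters in capitals. The Opa1 window (chr16:29579084-29579383, plus strand) holds the NRF1 centre on each strand at positions -59 and -57 from the start, as overlapping matches. The Aifm1 window (chrX:48513514-48513813, minus strand) holds it at position -44, and the Bnip3 window (chr7:138909457-138909756, minus strand) holds ACGTG on each strand at -108 and -107, read from the same letters.
Opa1: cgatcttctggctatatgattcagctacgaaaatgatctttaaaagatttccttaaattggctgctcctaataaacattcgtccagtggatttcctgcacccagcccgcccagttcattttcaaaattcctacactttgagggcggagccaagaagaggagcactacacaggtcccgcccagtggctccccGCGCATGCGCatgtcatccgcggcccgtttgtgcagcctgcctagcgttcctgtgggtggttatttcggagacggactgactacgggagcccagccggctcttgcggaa
Aifm1: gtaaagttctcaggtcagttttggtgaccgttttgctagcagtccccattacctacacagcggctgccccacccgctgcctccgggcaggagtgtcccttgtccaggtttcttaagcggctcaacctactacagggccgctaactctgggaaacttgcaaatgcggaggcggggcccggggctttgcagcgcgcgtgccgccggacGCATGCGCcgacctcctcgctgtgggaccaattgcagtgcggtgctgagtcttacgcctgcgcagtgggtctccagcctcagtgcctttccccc
Bnip3: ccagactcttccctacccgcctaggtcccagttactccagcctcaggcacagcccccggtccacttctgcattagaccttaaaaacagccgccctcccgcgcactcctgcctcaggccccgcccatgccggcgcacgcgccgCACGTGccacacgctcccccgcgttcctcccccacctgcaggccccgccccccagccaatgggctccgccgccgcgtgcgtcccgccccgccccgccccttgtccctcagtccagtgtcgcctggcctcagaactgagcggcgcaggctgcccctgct

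Of 17 other tested genes of the fusion and fission machinery, 9 were called lower and 7 higher, beside 36.4% and 37.2% of all tested genes, with a median log2 fold change of -0.36, and Pld6 and Gdap1 were too low to be tested. Both further DRP1 adaptors were called higher. Mief1 stood at 37.0 and 36.2 CPM after saline and at 52.3 and 52.4 CPM after cisplatin, a log2 fold change of 0.52 (SE 0.07), and Mief2 at 6.93 and 8.15 CPM and at 9.24 and 10.1 CPM, a log2 fold change of 0.35 (SE 0.14). The Mief2 call did not hold without cisplatin replicate 2 (adjusted p = 0.17, edgeR quasi-likelihood) or without saline replicate 1 (adjusted p = 0.216), nor in DESeq2 (adjusted p = 0.229) or limma on FPKM (adjusted p = 0.0553 and 0.0535). Inf2, a formin that builds actin at sites of division, was at 4.004 and 3.237 CPM after saline and at 21.1 and 20.9 CPM after cisplatin, 5.84-fold higher. Mtfp1, an inner-membrane protein linked to division, went the other way, from 15.96 and 17.0 CPM to 4.85 and 4.44 CPM, 3.56-fold lower. Slc25a46, an outer-membrane carrier relative, fell by 0.46 on the log2 scale (SE 0.06), but did not pass with library size alone (-0.09; edgeR quasi-likelihood, adjusted p = 0.262) or in limma on FPKM (adjusted p = 0.33 with either pseudocount). Dnm2, the dynamin of the plasma membrane, did not pass at 0.11 (SE 0.06; edgeR quasi-likelihood, adjusted p = 0.116). Dnm2 was called higher by the same test with upper-quartile scaling (0.22, adjusted p = 0.00229), library size alone (0.47, adjusted p = 2.42e-07), protein-coding genes alone (0.15, adjusted p = 0.0356) and without cisplatin replicate 1 (0.19, adjusted p = 0.0268). With library size alone 8 of the 17 were higher and 7 lower, with a median of 0.0. Over all 17419 tested genes that scaling gave 9110 higher and 4207 lower, with a median of 0.41.

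Genes that process OPA1 or build cristae were lower nearly throughout. Of 17 genes 16 were called lower and none higher, beside 36.4% lower and 37.2% higher over all tested genes. The median log2 fold change was -1.02, and 9 were lower by at least 2-fold, beside 16.1% of all tested genes. Immt, the core subunit of the MICOS complex at cristae junctions, stood at 471.2 and 491.0 CPM after saline and at 218.9 and 215.7 CPM after cisplatin. The proteases that cleave OPA1 were lower too. Yme1l1 went from 234.7 and 233.2 CPM to 154.3 and 144.8 CPM, a log2 fold change of -0.65 (SE 0.06), and Oma1, the stress-activated protease, from 23.9 and 24.7 CPM to 18.1 and 15.4 CPM, a log2 fold change of -0.54 (SE 0.10). With library size alone Oma1 stood at -0.17 and did not pass (edgeR quasi-likelihood, adjusted p = 0.15), and 12 of the 17 genes were lower and 1 higher. All 17419 tested genes had 4207 lower and 9110 higher under that scaling. The median of the list was then -0.65, beside 0.41 over all tested genes. Parl, the protease that cleaves PINK1 in healthy mitochondria, was the gene that did not pass (-0.07, SE 0.08); it was outside the rule for named genes and picked after its value was seen.

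Of 11 tested partners of PINK1, 5 were lower and 4 higher, beside 36.4% lower and 37.2% higher over all tested genes, and the median log2 fold change was -0.13. Sqstm1, which encodes the autophagy adaptor p62, rose from 454.8 and 467.9 CPM to 720.0 and 715.3 CPM, a log2 fold change of 0.64 (SE 0.05). Optn, an adaptor between ubiquitin and autophagosomes, was at 22.5 and 21.2 CPM after saline and at 26.9 and 27.2 CPM after cisplatin (log2 fold change 0.31, SE 0.09), and its call did not hold in DESeq2 (adjusted p = 0.0644). The kinase gene Tbk1 and the deubiquitinase gene Usp30 lay near the threshold at 0.16 (SE 0.07) and -0.26 (SE 0.11). Usp30 changed sign with library size alone (0.10). Neither call held without cisplatin replicate 1 (edgeR quasi-likelihood, adjusted p = 0.0818 for Usp30 and 0.258 for Tbk1), cisplatin replicate 2 (0.119 and 0.0741) or saline replicate 2 (0.432 and 0.245). With library size alone 6 of the 11 genes were higher and 3 lower, and the median was 0.23. All 17419 tested genes had 9110 higher and 4207 lower under that scaling, and a median of 0.41. Calcoco2 was too low to be tested.

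The list of receptor mitophagy holds receptors, such as those encoded by Fundc1, Fkbp8 and Bcl2l13, and also regulators and other factors. Its counts are therefore not counts of receptors. Of its 9 genes 7 were called lower and 1, the autophagy kinase gene Ulk1, higher, beside 36.4% and 37.2% of all tested genes. The median log2 fold change was -0.62. Fundc1, a receptor for hypoxic mitophagy, stood at 34.1 and 33.5 CPM after saline and at 17.9 and 18.2 CPM after cisplatin, a log2 fold change of -0.90 (SE 0.09). Fkbp8 fell by 0.62 (SE 0.05) and Bcl2l13 by 0.39 (SE 0.08) on the log2 scale, the latter not passing with library size alone (-0.02), where 5 of the 9 genes were lower and 2 higher. All 17419 tested genes had 4207 lower and 9110 higher under that scaling. The median of the list was then -0.25, beside 0.41 over all tested genes. The ATG8 proteins that these receptors bind did not move together, with 2 of 5 genes higher, 2 lower and 1 not passing. Their median was -0.04, and 0.33 with library size alone, beside 0.04 and 0.41 over all tested genes. Gabarapl1 stood at 745.6 and 697.7 CPM after saline and at 204.3 and 207.3 CPM after cisplatin, 3.51-fold lower, while Map1lc3b, which encodes the autophagosome marker LC3B, stood at 131.9 and 139.6 CPM and at 165.9 and 170.1 CPM (log2 fold change 0.31, SE 0.06).

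Of 13 relatives and partners of AIFM1, 8 were lower and 3 higher, beside 36.4% lower and 37.2% higher over all tested genes. The median log2 fold change was -0.29. With library size alone 5 were lower and 5 higher, and the median was 0.07. All 17419 tested genes had 4207 lower and 9110 higher under that scaling, and a median of 0.41. Chchd4, the import factor that AIFM1 holds in the intermembrane space, stood at 39.93 and 40.03 CPM after saline and at 32.3 and 32.9 CPM after cisplatin, a log2 fold change of -0.29 (SE 0.08) that was 0.07 with library size alone. Aifm2, the ferroptosis suppressor FSP1, fell by 0.42 (SE 0.11), and did not pass with library size alone (-0.05). Parp1, whose polymer product can release AIFM1, was lower at 34.3 and 32.5 CPM against 61.6 and 62.5 CPM after saline. Endog, a mitochondrial nuclease, stood at 17.3 and 18.8 CPM after saline and at 9.41 and 8.56 CPM after cisplatin, and Cycs, which encodes cytochrome c, at 544.9 and 581.8 CPM and at 341.1 and 322.8 CPM. Diablo, H2afx and Adprhl2 were the genes called higher, named after their values were seen. Adprhl2, which encodes a hydrolase of poly(ADP-ribose), was at 14.6 and 15.7 CPM after saline and at 35.6 and 32.6 CPM after cisplatin.

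Genes of general mitochondrial upkeep, listed as a reference for organelle content, were lower in 17 of 20 cases and higher in none. Over all tested genes, 36.4% were called lower and 37.2% higher. The median log2 fold change of the list was -0.49. The import receptor gene Tomm20 stood at 310.0 and 314.3 CPM after saline and at 167.9 and 162.7 CPM after cisplatin, the outer-membrane channel gene Vdac1 at 768.8 and 820.9 CPM and at 333.7 and 311.0 CPM, and the chaperonin gene Hspd1 at 644.3 and 637.6 CPM and at 314.6 and 299.1 CPM. Tfam, which packages mitochondrial DNA, fell by 0.60 (SE 0.07) on the log2 scale, and did not pass in limma on FPKM (adjusted p = 0.116 and 0.113). Aifm1, at -1.97, lay below every gene of this list, the lowest of which was Slc25a4 at -1.68, and Dnm1l, at -0.07, lay above 18 of the 20. With library size alone 8 of the 20 were lower and 4 higher, and the median was -0.13. All 17419 tested genes had 4207 lower and 9110 higher under that scaling, and a median of 0.41.

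**Figure D5:**
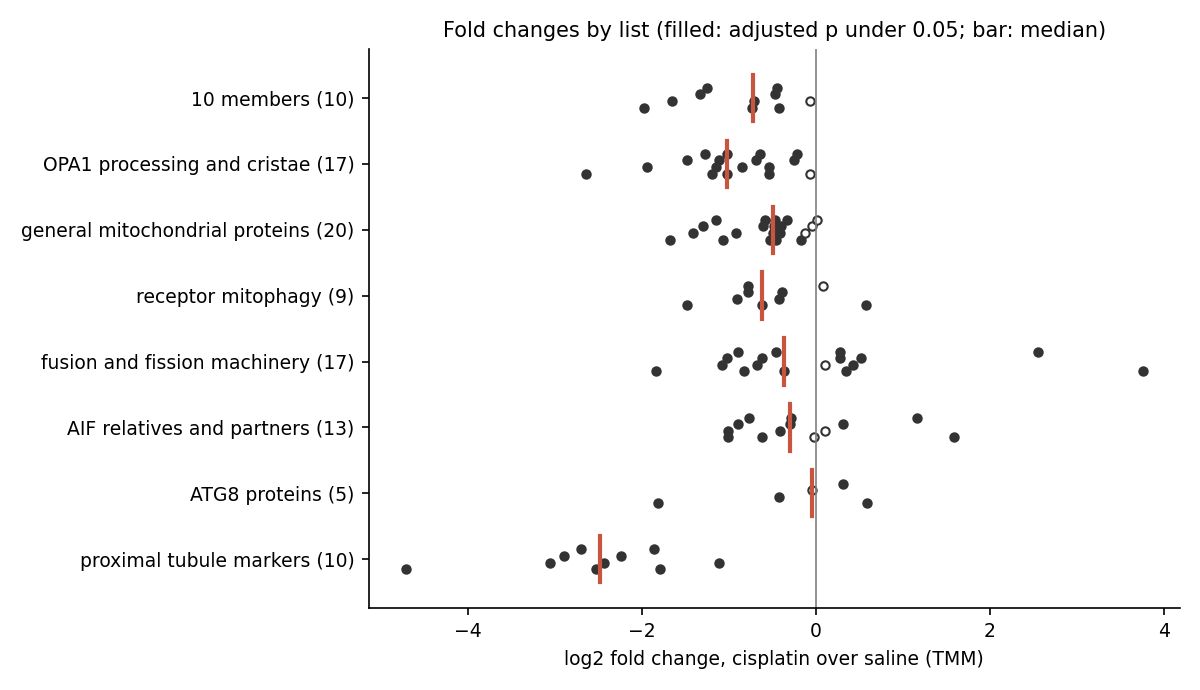
Log2 fold change (horizontal axis, cisplatin over saline, TMM scaling) of the tested genes of the lists shown (the PINK1 partners are not plotted), with their number in brackets; filled points have an adjusted p under 0.05 and bars are medians. The 10 genes have a median of -0.72, the OPA1 processing and cristae list -1.02, the ATG8 genes -0.04 and the proximal tubule markers -2.48.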

How the data were processed

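The authors deposited a table of raw read counts per gene and a table of FPKM for the same 4 libraries, their units read from the table names and the values. Directional libraries were read as pairs of 150 nt, per the labels' protocols, and GRCm38, TopHat2, bcl2fastq and edgeR are named per the submitters' processing notes. How reads were assigned to genes, and with which annotation, is not stated in the sources used here. Counts were filtered with filterByExpr, scaled by TMM and tested across 17419 genes with edgeR 4.0.16 (glmQLFit, glmQLFTest) in R 4.3.3, with 2 residual degrees of freedom. Standard errors follow from the fold change and its F statistic, and the TMM factors were 1.149 and 1.123 (cisplatin) against 0.861 and 0.901 (saline). DESeq2 1.42.0 and limma 3.58.1 (on log2 of FPKM plus 0.1 or 1) served as alternatives, beside other scalings and filters, leaving out each library, and a replicate block.

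The genes, the lists and the named genes were chosen with earlier results of these data known. The named genes were the 10 members, 28 fixed genes of the lists, and the 3 genes nearest to Aifm1 with a mean of at least 5 CPM. A result for 1 of the fixed genes is not reported here. In simulated counts over 17419 genes for the cisplatin against saline comparison, the test recovered 50 of 50 genes changed by -1.5 and 40 of 50 changed by -0.5 on the log2 scale. Only 50 genes at each of -1.5, -0.5, 0.5 and 1.5 were changed, all with high counts, and every gene had the same dispersion. A far larger share of genes was called in the real libraries, so the simulation does not cover the dependence on scaling. Neither replicate pair agreed within sampling noise (chi-square per degree of freedom 11.7 and 37.1). Coordinates are those of GENCODE M21, on GRCm38, where 99.2% of the identifiers matched without their version. Copies were sought with blastn 2.17.0.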

Additional observations from a re-analysis of the deposited data

How the results depend on the processing

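With TMM, RLE or upper-quartile scaling, either other filter (none, or 1 CPM in 2 libraries), DESeq2, the edgeR exact test, the replicate block and protein-coding genes alone (added after seeing the data), 9 of the 10 genes were called lower and 0 higher. Leaving out each library in turn gave 9 to 9 lower and 0 to 0 higher, with Opa1 between -1.31 and -1.19 on the log2 scale and Dnm1l between -0.10 and -0.05. Library size alone gave 6 lower and 1 higher, and limma-trend on FPKM gave 5 lower with a pseudocount of 0.1 and 6 with a pseudocount of 1. Mfn1 was the gene that parted these (adjusted p = 0.0512 at the former). The median of all tested genes moved from 0.04 to 0.41 with library size alone and to 0.16 with upper-quartile scaling. Over all genes, 6487 were higher and 6333 lower with TMM, 9110 and 4207 with library size alone, and 7258 and 3804 or 7319 and 3784 with FPKM at the respective pseudocounts; the cause was not tested. Dnm1l changed sign with upper-quartile scaling (0.048), library size alone (0.30) and FPKM (0.20 and 0.19). Usp30 did so with library size alone (0.10) and FPKM (0.021 and 0.013), and Chchd4 with library size alone (0.072). Deviations of same-numbered libraries were hardly correlated across genes (-0.06). With 2 libraries a group this cannot show whether the numbers pair the libraries. The replicate block gave 6382 higher and 6271 lower genes, changing no call among the 10. Precision is limited by 2 libraries a group, not by counts, since the 10 genes had at least 938 counts in each library.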

Other observations

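Genes at the edges of the lists were picked after their values were seen. Chchd3 and Chchd6, subunits of the MICOS complex, stood at 185.6 and 180.5 CPM and at 12.6 and 13.6 CPM after saline, and at 49.8 and 45.6 CPM and 1.982 and 2.198 CPM after cisplatin. Their log2 fold changes of -1.94 (SE 0.06) and -2.64 (SE 0.17) were below that of Immt, at -1.15. Nipsnap1, which encodes a matrix protein that recruits autophagy adaptors once exposed on damaged mitochondria, went from 144.8 and 152.5 CPM to 53.9 and 52.9 CPM. Its relative Nipsnap2, listed as Gbas, went from 83.0 and 88.4 CPM to 64.5 and 63.2 CPM. Pgam5, a mitochondrial phosphatase that stabilises PINK1, was higher at 52.1 and 51.8 CPM against 25.2 and 27.7 CPM after saline. Mtfr2, a division factor of proliferating cells, had 3 counts in each saline library and 54 and 43 counts in the cisplatin libraries. Slc25a4 and Slc25a5, the ADP/ATP carriers, fell by 1.68 and 1.42 on the log2 scale (SE 0.06 for each).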
